A study of Mus musculus with 7 samples.

Results

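The genes of the cytosolic ribosomal proteins were followed in bulk RNA-seq of prefrontal cortex (PFC). They were taken from the deposited gene table as the protein-coding rows whose names begin with Rpl or Rps followed by a number, allowing a final a, x, y or l, together with Rplp0, Rplp1, Rplp2 and Rpsa. This gave 80 of 55416 genes in the table, or 80 of 21885 protein-coding genes, of which 49 belong to the large and 31 to the small ribosomal subunit. The name rule leaves out 7 further genes of the cytosolic ribosome, among them Rps3a1, Rpl36al, Rpl22l1, Rpl7l1, Fau and Rack1, which are described separately.

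All mice were female C57BL/6 wild-type animals that received a recombinant adeno-associated virus (AAV) in both sides of the PFC. The Ctr group (3 libraries) received the vector without insert, the Ref group (2 libraries) a vector carrying the human long noncoding RNA PAXIP1-AS1 with the reference C allele, and the Alt group (2 libraries) the same RNA with the alternative G allele. In every group the vector also carried an EGFP reporter, and its human synapsin promoter is active in neurons, so that only part of the cells in the tissue would carry the transgene RNA. The age at sampling is not given in the sources used here. Nothing in the labels says whether the libraries of a group came from separate animals or from pools, so that p-values measure only the spread between these samples. The transgene transcript was not analysed here.

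Ribosomal proteins assemble with ribosomal RNA into the small subunit, which reads the mRNA, and the large subunit, which joins amino acids. Because the subunits contain mostly a single copy of each protein, their genes are known to be expressed in a coordinated way. In neurons ribosomes supply protein synthesis in the cell body and, locally, in dendrites and axons. Most ribosomal protein mRNAs begin with a 5′ terminal oligopyrimidine (TOP) tract, a C followed by a run of C and T (U in the RNA), through which the mTORC1 pathway controls their translation.

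The RefSeq promoter table (GRCm38.p6) held 72 annotated starts for 60 of the 80 genes. A C followed by at least 4 pyrimidines began within 5 bases of the start in 30 of the 72 starts (41.7%), against 18.3% of 32851 starts of all genes. The windows below run 30 bases around the start on the gene's strand and show what such a tract looks like, with the tract in capitals. They are those of the S6 kinase substrate Rps6 (chr4:86857353-86857382, minus strand), the stalk protein Rplp2 (chr7:141447636-141447665, plus strand), Rpl27a (chr7:109519180-109519209, plus strand), Rpl7a (chr2:26910792-26910821, plus strand), the zinc-finger protein Rps27 (chr3:90213634-90213663, minus strand) and Rps10 (chr17:27635230-27635259, minus strand). For contrast, the windows of the large-subunit gene Rpl10 (chrX:74270801-74270830, plus strand) and of Rps4x (chrX:102189377-102189406, minus strand) hold no such tract at the annotated position.
Rps6: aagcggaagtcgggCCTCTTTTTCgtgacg
Rplp2: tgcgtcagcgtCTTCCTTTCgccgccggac
Rpl27a: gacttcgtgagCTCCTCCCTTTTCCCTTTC
Rpl7a: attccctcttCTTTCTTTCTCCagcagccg
Rps27: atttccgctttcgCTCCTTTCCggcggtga
Rps10: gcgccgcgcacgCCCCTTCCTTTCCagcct
Rpl10: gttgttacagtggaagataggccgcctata
Rps4x: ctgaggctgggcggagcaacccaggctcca

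Within 300-base promoters (250 bases before to 50 after the start), searched on both strands, the ETS core CCGGAAG was present in 36.1% of the starts of these genes against 8.86% of all starts. The YY1 core AAGATGGC was present in 9.72% against 2.75%. These matches describe the letters in the windows and not the binding of a factor.

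Total counts per library lay between 16655697 (Alt replicate 1) and 20750857, and TMM factors between 0.924 (Alt replicate 1) and 1.05. The low-count filter kept 17254 genes, among them 77 of the 80 ribosomal protein genes (46 large, 31 small), and the summed level of 4 neuronal markers was 3701 to 4669 CPM in all 7 libraries, as the labelled tissue would have. Alt replicate 1 stood apart from the other libraries, and the libraries of Alt differed from each other by a chi-square of 56.32 per degree of freedom over genes, against 18.25 to 24.35 within Ctr and Ref. For named ribosomal protein genes among the 77 whose call was lost without this library, the value without it is therefore given as well. For the other gene lists only counts and medians without it are given.

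The 3 genes that did not pass the filter are tissue-restricted copies. Rpl10l, the copy of Rpl10 known from testis, had 0 counts in every library, where the depth allows up to 3 counts. Rpl39l, a copy of Rpl39 known from the male germline, had 1 count in Ref replicate 1 and 0 elsewhere. Rpl3l, the copy of Rpl3 known from muscle, had 8 counts in Ctr replicate 2, 3 in Ref replicate 1 and 0 in the other libraries. In contrast, their partners were well covered, and Rpl3 alone had 365.0 to 440.6 CPM in Ctr.

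Per length, the members spanned a wide range of levels. The deposited FPKM, a level per gene length and library total, had a median over members of 42.0 ± 7.41 in Ctr (SD, n = 3). Rplp1, an acidic protein of the stalk that recruits elongation factors, was highest with 763.4 ± 82.2 FPKM (SD, n = 3), followed by Rpl4, which lines the exit tunnel, with 218.8 ± 22.3 and Rps15, a protein of the small-subunit head, with 163.7 ± 41.4 FPKM. Rpl4 and Rps15 overlapped within their spread, while Rplp1 lay above both. At the other end stood Rpl13a with 2.70 FPKM, Rpl24 with 1.13 and Rps10 with 0.508 FPKM in Ctr. Rps10, a protein of the small-subunit head, shares sequence with processed copies in the genome. Its 34, 18 and 18 counts in Ctr stood beside 326, 170 and 356 counts on the copy Rps10-ps2, so that the level of Rps10 itself is uncertain. In all, 314 pseudogene rows named after ribosomal proteins held 4.49% to 4.99% as many counts as the members in the Ctr and Ref libraries, 5.67% in Alt replicate 1 and 4.88% in Alt replicate 2.

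Ribosomal protein mRNAs were less abundant in Alt than in Ctr. Of 77 genes tested, 77 had a lower fitted level in Alt, with a median log2FC of −0.67, which is 1.60-fold lower, against a median of −0.03 over all genes tested. By edgeR's quasi-likelihood F-test with an unadjusted threshold of 0.05, 55 of the 77 (71.4%) fell and 0 rose, where 10.3% of all 17254 genes (1784) fell and 9.45% (1630) rose. With scaling by library totals alone, 2695 of all genes fell and 973 rose, and with a GC correction 1544 fell and 2105 rose, while 0 of the 77 rose under either. After Benjamini-Hochberg adjustment over all genes, 0 of the 77 passed (0.0% of all genes passed), and the smallest adjusted p among them was 0.12. DESeq2's Wald test, run as an alternative, called 24 of the 77 lower at an adjusted p of 0.05, among 1097 genes in all. In bulk tissue, fewer cells of a type and less RNA per cell cannot be told apart.

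The size of the difference was unequal between the Alt libraries. Relative to the mean of Ctr, the median over the 77 genes was −1.12 on the log2 scale in Alt replicate 1 and −0.33 in Alt replicate 2, while all genes had medians of −0.04 and 0.00. The Ctr libraries lay at 0.16, −0.14 and −0.05 and the Ref libraries at 0.06 and −0.06. Both Alt libraries thus lay below the other 5 by their median, but replicate 2 was nearer to the lowest Ctr library than to replicate 1. Alt replicate 1 was the lowest of the 7 libraries for 75 of 77 genes, and all 77 genes lay below the Ctr mean in it, against 74 in Alt replicate 2, beside 8965 and 8624 of all 17254 genes. The spread over genes was also larger in Alt replicate 1, with an SD of 0.61, against 0.46 in Ref replicate 1, 0.27 in Ref replicate 2, 0.25 in Alt replicate 2 and 0.20 to 0.27 in Ctr. Over all genes tested this SD was likewise largest in Alt replicate 1, at 1.14 against 0.43 to 0.74 in the other libraries.

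**Figure D1:**
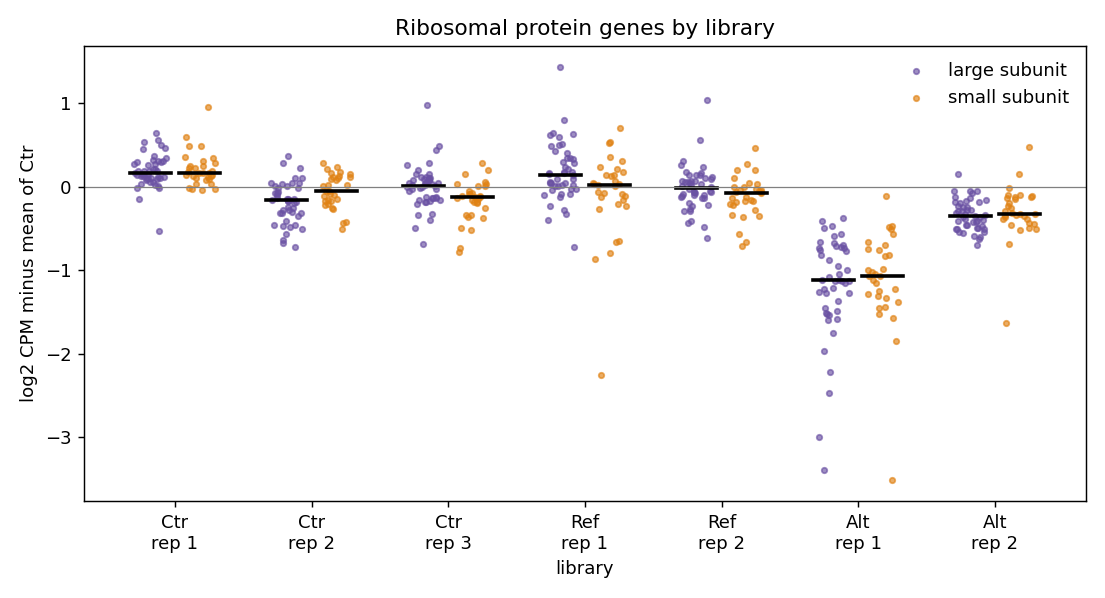
Each point is 1 of 77 ribosomal protein genes in 1 library (x axis), placed by its log2 CPM minus the mean of the 3 Ctr libraries (y axis), with large-subunit genes in purple, small-subunit genes in orange and black bars at the medians. Alt replicate 1 has medians of −1.12 (large) and −1.07 (small), and Alt replicate 2 of −0.35 and −0.32.

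Both Alt libraries lay below every Ctr library for 46 of the 77 genes (30 large, 16 small), where 18.1% of all genes did. They lay below every Ctr and every Ref library for 42 genes (28 large, 14 small), against 13.1% of all genes. As a share of all counts, the 80 genes took 0.911%, 0.767% and 0.782% in Ctr, 0.876% and 0.743% in Ref, and 0.379% and 0.619% in Alt. On this measure, too, both Alt libraries were below the other 5.

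The result depended on Alt replicate 1 for its size and for most of its calls. Without that library the median log2FC was −0.34 and 14 genes fell, where 4.46% of all genes fell. Without Alt replicate 2 it was −1.14, with 72 genes lower at an unadjusted p of 0.05, where 18.9% of all genes were, and 64 members at an adjusted p of 0.05, among 3451 of 18848 genes. When a length trend fitted per library was removed, the median was −0.44 for the large and −0.40 for the small subunit, and 38 genes fell, against 9.06% of all genes. Ribosomal protein genes are short, with a median listed length of 1781 bases (383 to 6270) against 4051 over all genes tested. Over all genes tested the log2FC correlated with log2 length at Pearson's r = 0.20, and over the 77 members at 0.13, as a description across genes that share libraries. With Alt replicate 1 left out and the length trend removed, an alternative chosen after seeing the data, 8 of the 77 genes fell and the median was −0.25, where 4.53% of all genes fell. The part of transcript length and of RNA quality in this library was not tested further.

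**Figure D2:**
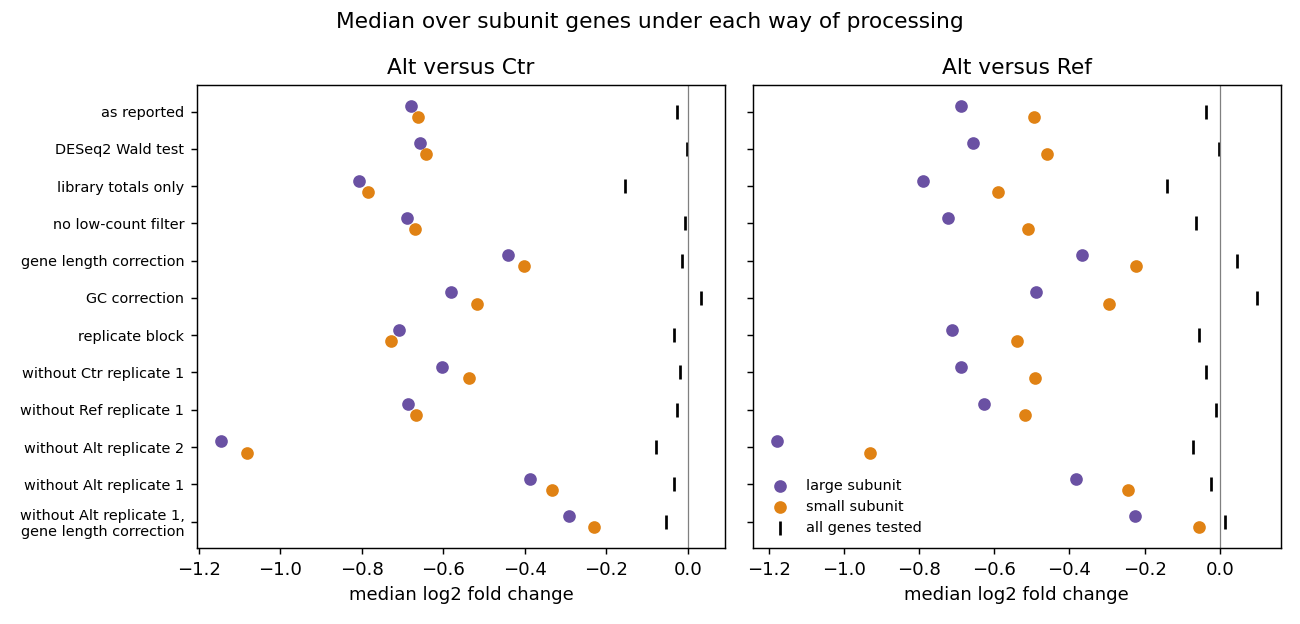
Median log2 fold change (x axis) over large-subunit genes (purple), small-subunit genes (orange) and all genes tested (black ticks) under 12 ways of processing (y axis), for Alt against Ctr (left) and Alt against Ref (right). Member medians stay below those of all genes in each, and lie nearest to them without Alt replicate 1 and with the length correction.

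Among large-subunit genes, those of the P stalk, which recruits the GTPases of translation, were covered from low to very high levels. Rplp1 had 363.0, 336.4 and 408.4 CPM in Ctr, 392.6 and 385.9 in Ref, and 157.5 and 339.1 in Alt. Alt replicate 1 was far below every other library, while Alt replicate 2 lay within the range of Ctr. Its log2FC was −0.57 ± 0.25 (SE) against Ctr, at an unadjusted p of 0.0446 (adjusted p = 0.24). Rplp2 had 57.0, 61.4 and 41.5 CPM in Ctr, 43.3 and 37.6 in Ref, and 24.2 and 36.9 in Alt. Both Alt libraries were below the other 5, Alt replicate 2 only just. Rplp2 fell by 0.80 ± 0.23 on the log2 scale against Ctr (unadjusted p = 0.00461, adjusted p = 0.125). Rplp0, the base of the stalk, fell by 0.37 ± 0.16 (unadjusted p = 0.0414, adjusted p = 0.232). Rplp2 still passed without Alt replicate 1, with a log2FC of −0.53 ± 0.24 (unadjusted p = 0.0414), whereas Rplp1 at −0.12 ± 0.17 and Rplp0 at −0.18 ± 0.17 did not (unadjusted p = 0.483 and 0.308).

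Rpl5 and Rpl11 bind the 5S ribosomal RNA and, as free proteins, the p53 regulator Mdm2. Rpl11 had 62.4, 38.1 and 54.2 CPM in Ctr, 78.1 and 52.3 in Ref, and 21.1 and 32.7 in Alt, with both Alt libraries below the other 5. It fell by 0.94 ± 0.27 on the log2 scale against Ctr (unadjusted p = 0.00432, adjusted p = 0.125) and by 1.28 ± 0.29 against Ref (unadjusted p = 0.000823, adjusted p = 0.229). Rpl5 had 193.3, 175.9 and 155.6 CPM in Ctr, 175.9 and 162.8 in Ref, and 118.2 and 131.7 in Alt. The Alt libraries of Rpl5 were near each other and both below the other groups, and its log2FC against Ctr was −0.49 ± 0.15 (unadjusted p = 0.00851, adjusted p = 0.139). Both genes still passed against Ctr without Alt replicate 1, at −0.66 ± 0.28 for Rpl11 and −0.41 ± 0.18 for Rpl5.

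The large-subunit genes with the smallest p against Ctr were Rpl27a and Rpl34. Rpl27a had 119.9, 87.1 and 112.5 CPM in Ctr, 118.2 and 97.6 in Ref, and 52.7 and 69.4 in Alt. It fell by 0.80 ± 0.19 on the log2 scale (unadjusted p = 0.00137, adjusted p = 0.12), and by 0.62 ± 0.22 without Alt replicate 1. Rpl34 had 85.1, 86.6 and 71.3 CPM in Ctr, 78.9 and 73.6 in Ref, and 49.3 and 55.6 in Alt, and fell by 0.63 ± 0.16 (unadjusted p = 0.00205, adjusted p = 0.12). Both genes were separated from Ctr and Ref in each Alt library. Rpl22, which also binds RNA outside the ribosome, behaved alike in both Alt libraries, with 67.9, 81.0 and 53.1 CPM in Ctr, 61.0 and 54.4 in Ref, and 40.0 and 44.0 in Alt. It fell by 0.68 ± 0.19 (unadjusted p = 0.00431, adjusted p = 0.125).

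The other large-subunit genes chosen for their role spanned smaller and larger differences. Rpl10, which joins the subunit late in its assembly, fell by 0.49 ± 0.17 on the log2 scale (unadjusted p = 0.0142, adjusted p = 0.16), and Rpl10a, a protein of the L1 stalk, fell by 0.57 ± 0.24 (unadjusted p = 0.0335, adjusted p = 0.211). Rpl41, a short basic peptide at the interface of the subunits, fell by 1.00 ± 0.31 (unadjusted p = 0.00675, adjusted p = 0.131). Rpl4 fell by 0.48 ± 0.18 (unadjusted p = 0.0207, adjusted p = 0.176). None of these 4 calls held without Alt replicate 1, where the log2FC was −0.29 for Rpl10, −0.18 for Rpl10a, −0.59 for Rpl41 and −0.23 for Rpl4 (unadjusted p = 0.135, 0.377, 0.0555 and 0.193). Rpl3, near the peptidyl transferase centre, had a log2FC of −0.26 ± 0.15 and Rpl39, at the exit tunnel, of −0.79 ± 0.38, and neither passed the test (unadjusted p = 0.116 and 0.0608). Rpl39 had 68.1, 71.1 and 34.3 CPM in Ctr, so that Ctr replicate 3 lay below the 48.6 CPM of Alt replicate 2. The least covered genes gave wide errors. Rpl24 had 13, 14 and 44 counts in Ctr and 0 and 13 in Alt, and Rpl13a had a log2FC of −0.15 ± 0.36, and neither passed the test (unadjusted p = 0.238 and 0.686).

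In the small subunit, Rpsa, also known as the laminin receptor precursor, had 363.9, 300.2 and 340.7 CPM in Ctr, 377.4 and 334.5 in Ref, and 142.3 and 254.5 in Alt. Both Alt libraries were below the other 5. Rpsa fell by 0.75 ± 0.22 on the log2 scale against Ctr (unadjusted p = 0.00505, adjusted p = 0.127) and by 0.84 ± 0.24 against Ref (unadjusted p = 0.00405, adjusted p = 0.233). Rps4x, encoded on the X chromosome, had 232.3, 214.6 and 188.7 CPM in Ctr, 188.8 and 193.9 in Ref, and 103.6 and 154.3 in Alt. It had the smallest p of the small subunit against Ctr, with a fall of 0.72 ± 0.19 (unadjusted p = 0.00233, adjusted p = 0.12). In each Alt library Rps4x was below the other 5, again with no overlap. Rpsa and Rps4x still passed against Ctr without Alt replicate 1, at −0.40 ± 0.18 and −0.46 ± 0.18.

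Rps6, the substrate of the S6 kinases downstream of mTORC1, had 164.8, 147.2 and 126.5 CPM in Ctr, 137.6 and 132.7 in Ref, and 70.1 and 113.3 in Alt. Both Alt libraries were below the other 5, and Rps6 fell by 0.67 ± 0.20 on the log2 scale (unadjusted p = 0.00671, adjusted p = 0.131). Rps3, which lies at the mRNA entry site, fell by 0.42 ± 0.16 (unadjusted p = 0.0222, adjusted p = 0.181), with 96.3 and 106.4 CPM in Alt against 120.3 to 149.5 in the other libraries. Neither call held without Alt replicate 1, with a log2FC of −0.37 for Rps6 and −0.34 for Rps3 (unadjusted p = 0.0716 and 0.0867). Rps19, mutated in Diamond-Blackfan anaemia, had a log2FC of −0.58 ± 0.27 and Rps29, a zinc-binding protein, of −0.77 ± 0.42, and neither passed the test (unadjusted p = 0.0531 and 0.0871).

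Some genes varied within Ctr as much as between groups. Rps27a, which is made as a fusion with ubiquitin, had 147.8, 65.3 and 45.8 CPM in Ctr, 41.7 and 48.0 in Ref, and 29.3 and 47.2 in Alt. Ctr replicate 1 was far above the rest, and Alt replicate 2 lay above Ctr replicate 3 and between the Ref libraries. The log2FC of Rps27a was −1.17 ± 0.40 against Ctr (unadjusted p = 0.0132, adjusted p = 0.157), and −0.54 ± 0.26 without Ctr replicate 1 (unadjusted p = 0.0656). Rps27 also varied within Ctr, with 89.4, 78.0 and 37.2 CPM there, 36.9 and 43.1 in Ref, and 22.2 and 47.4 in Alt. Here Alt replicate 2 lay above Ctr replicate 3 and both Ref libraries. Rps27 fell by 0.97 ± 0.36 against Ctr (unadjusted p = 0.0204, adjusted p = 0.176). Without Alt replicate 1 the log2FC was −0.87 for Rps27a and −0.52 for Rps27, and neither passed (unadjusted p = 0.0669 and 0.145). Its diverged copy Rps27l was low, at 5.61, 4.43 and 4.37 CPM in Ctr, 4.50 and 6.62 in Ref, and 2.15 and 6.69 in Alt. The Alt libraries of Rps27l were the lowest and the highest of the 7, and its log2FC was −0.11 ± 0.45 (unadjusted p = 0.808). Rps10 had 3 and 12 counts in Ref and 0 and 5 in Alt, with an unadjusted p of 0.0664.

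**Figure D3:**
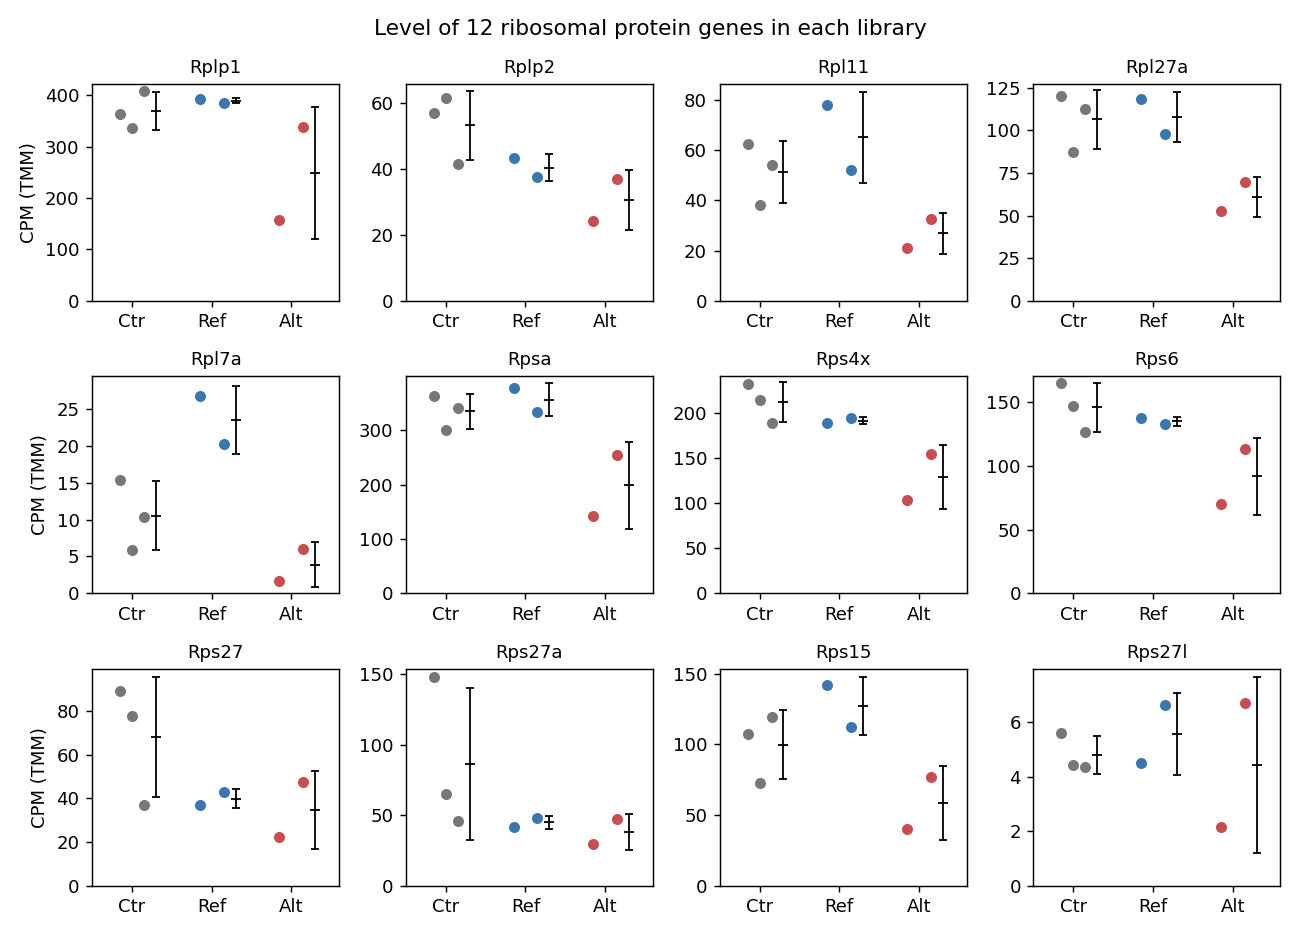
TMM-normalized CPM (y axes from 0) of 12 ribosomal protein genes in each library of Ctr, Ref and Alt (x axis), with the mean and SD of each group beside the points in black. Rpsa, Rps6, Rpl11 and Rpl27a are lower in both Alt libraries, while Rps27, Rps27a and Rps27l overlap between groups.

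Across the 77 members, lower expressed genes tended to differ more. The log2FC against Ctr and the mean log2 CPM correlated at r = 0.55, against 0.08 over all genes tested, again as a description. For the log2FC against Ref these values were 0.36 and 0.09. The mean log2 CPM was taken over all 7 libraries, so that a low value in Alt also lowers it. Genes with few counts, such as Rps10 and Rpl24, were among the 77. The most reduced genes in Alt replicate 1 included some of low coverage and Rpl30, a gene named here after its values were seen. Rpl30 had 49.0, 35.3 and 66.2 CPM in Ctr, 68.8 and 71.4 in Ref, and 5.98 and 38.3 in Alt, so that replicate 2 lay within the range of Ctr and replicate 1 far below it. The median log2FC was −0.70 for 28 members with a TOP tract at an annotated start, −0.68 for 29 without and −0.62 for 20 with no promoter entry.

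Whichever library was left out, 14 genes were lower in Alt than in Ctr, as were 446 (2.58%) of all 17254 genes. Among them were Rpl5, Rpl11, Rpl22, Rpl27a, Rpl34, Rplp2, Rps4x and Rpsa, together with Rpl8, Rpl13, Rpl26 and Rps12, which are named for this alone after their values were seen. Of these 14 genes, 13 also passed the test with the length correction, every gene named here included, as did 422 (2.45%) of all genes. None of the 14 passed at an adjusted p of 0.05 without Alt replicate 1, where 0 genes of the whole table did.

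Large and small subunit genes were compared next. Against Ctr, 36 of 46 large-subunit genes (78.3%) and 19 of 31 small-subunit genes (61.3%) fell, with medians of −0.68 and −0.66 on the log2 scale, beside 10.3% of all genes. Without Alt replicate 1 these counts were 9 (19.6%) and 5 (16.1%), beside 4.46% of all genes. The order of the shares turned with the replicate block, at 39.1% of large-subunit and 54.8% of small-subunit genes (6.1% of all genes). It also turned without Ctr replicate 3, at 63.0% and 64.5% (8.12% of all genes). With DESeq2 on a numeric score over the groups the shares were 58.7% and 61.3% (9.08% of all genes). The difference of the medians, −0.02, was below 0.09, the pooled SD within groups of the same difference taken in single libraries. It was −0.11 without Ctr replicate 2, which is above that SD in size, and 0.03 without Ctr replicate 3. The ratio of large- to small-subunit counts was 1.43, 1.37 and 1.54 in Ctr, 1.54 and 1.51 in Ref, and 1.45 and 1.45 in Alt. Both Alt values lay within the range of Ctr although the summed counts of both subunits were lower.

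The comparison of Alt with Ref asks whether the alleles differ, and its Alt libraries are those compared with Ctr. Against Ref, 76 of the 77 genes had a lower fitted level, with a median log2FC of −0.64 against −0.04 over all genes. At an unadjusted p of 0.05, 51 (66.2%) fell and 0 rose, where 8.83% of all genes (1523) fell and 6.71% (1157) rose. For all genes this split was 2055 to 703 with library totals alone, 901 to 1968 with the GC correction and 967 to 1280 with the length correction, and 0 of the 77 rose under these. At an adjusted p of 0.05, 0 of the 77 passed, as did 1 gene (0.0058%) of the whole table, and the smallest adjusted p of a member was 0.229. DESeq2's Wald test called 18 members lower at an adjusted p of 0.05, among 429 genes in all. Without Alt replicate 1 the median was −0.33 and 21 genes fell, where 4.4% of all genes fell. Without Ref replicate 1, too, 21 genes fell, where 2.88% of all genes did. With the length correction 27 fell, with a median of −0.31, where 5.6% of all genes fell.

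Large-subunit genes had a median of −0.69 against Ref and small-subunit genes of −0.49, and 33 of 46 and 18 of 31 fell, beside 8.83% of all genes. These counts were 16 and 5 without Alt replicate 1 (4.4% of all genes) and likewise 16 and 5 without Ref replicate 1 (2.88%), and 27 and 13 without Ref replicate 2 (5.76%). This difference in medians of −0.20 was larger in size than the pooled SD of 0.09. That SD describes single libraries and is not the error of a fitted difference. Relative to the mean of Ctr, large and small medians were 0.14 and 0.02 in Ref replicate 1 and −0.02 and −0.08 in Ref replicate 2. They were −1.12 and −1.07 in Alt replicate 1 and −0.35 and −0.32 in Alt replicate 2. The fitted difference was −0.11 without Ref replicate 1 and −0.25 without Ref replicate 2, with no test made. Rpl7a had the smallest p of the large subunit, with 15.3, 5.91 and 10.4 CPM in Ctr, 26.8 and 20.3 in Ref, and 1.69 and 6.02 in Alt. The Ref libraries were the highest and Alt replicate 1 the lowest of the 7, while Alt replicate 2 lay just above the lowest Ctr library. Rpl7a fell by 2.59 ± 0.53 on the log2 scale against Ref (unadjusted p = 0.000391, adjusted p = 0.229) and by 1.44 ± 0.49 against Ctr (unadjusted p = 0.0129). Without Alt replicate 1, Rpl7a passed against Ref, at −1.96 ± 0.46 (unadjusted p = 0.000702), and not against Ctr, at −0.81 ± 0.43 (unadjusted p = 0.0764). In the small subunit, Rps15 fell by 1.12 ± 0.30 on the log2 scale (unadjusted p = 0.00291, adjusted p = 0.229). Rps15 had 107.6, 72.6 and 119.3 CPM in Ctr, 141.8 and 112.6 in Ref, and 40.1 and 77.2 in Alt, where Alt replicate 2 was above Ctr replicate 2 but below both Ref libraries. Its log2FC against Ref was −0.71 ± 0.27 without Alt replicate 1 (unadjusted p = 0.0178).

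**Figure D4:**
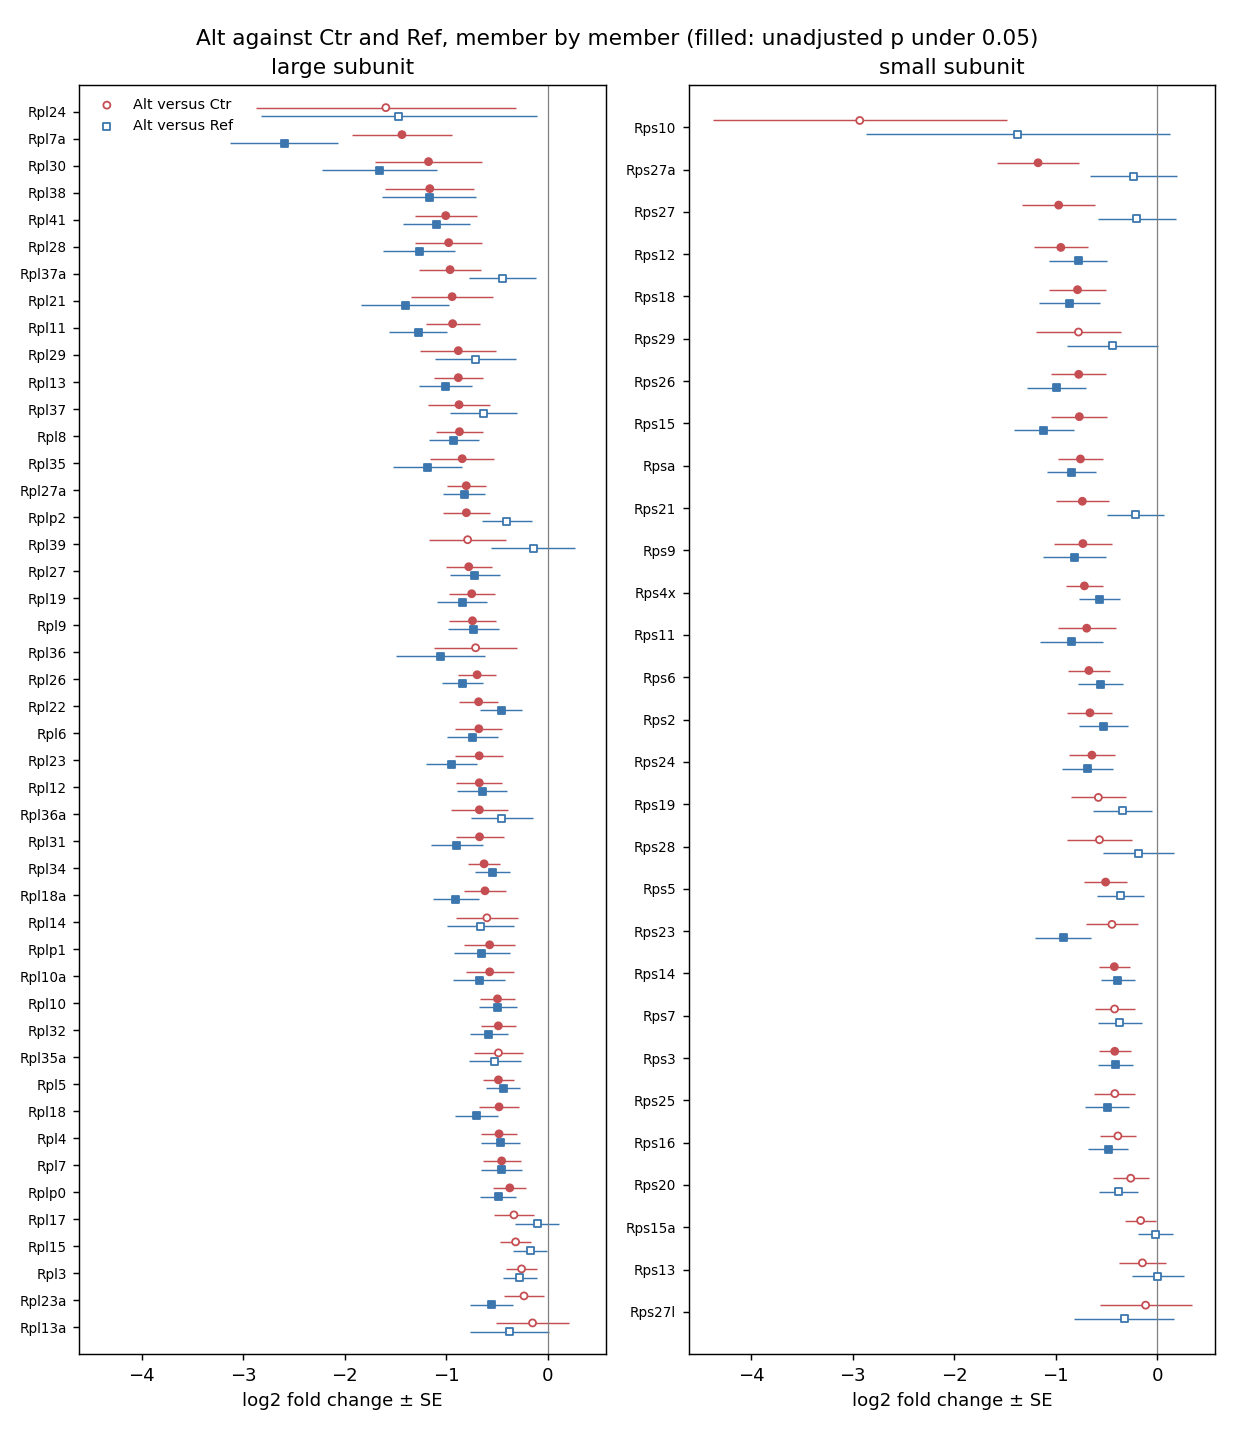
Log2 fold change with its standard error (x axes) of 75 ribosomal protein genes (y axes, sorted by Alt against Ctr) for Alt against Ctr (red circles) and Alt against Ref (blue squares), filled where the unadjusted p was under 0.05. Of the genes drawn, 53 are filled against Ctr and 49 against Ref, and the filled symbols all lie to the left of 0.

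A total of 46 genes fell in both comparisons, 60 in at least 1 and 17 in neither, where 5.95% of all genes fell in both and 13.2% in at least 1. When Alt replicate 1 was left out, 8 members fell in both, beside 2.41% of all genes. Since both use the same Alt libraries, they are not independent. Rps27a, Rps27 and Rplp2 passed against Ctr and not against Ref, where their log2FC values were −0.23 ± 0.43, −0.20 ± 0.39 and −0.40 ± 0.25 (unadjusted p = 0.603, 0.618 and 0.129).

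In the comparison of Ref with Ctr, which asks about the C allele, the members showed no common direction. The median log2FC was 0.02 over the 77 genes (0.06 large, −0.05 small), with 36 genes below and 41 above 0, and all genes had a median of 0.01. At an unadjusted p of 0.05, 1 gene fell and 1 rose, where 0.945% of all genes (163) fell and 2.19% (378) rose, and none passed at an adjusted p of 0.05 (0.0% of all genes). The gene that fell was Rps27a (log2FC −0.94 ± 0.40, unadjusted p = 0.0354, adjusted p = 1.0), and the gene that rose was Rpl7a (log2FC 1.16 ± 0.44, unadjusted p = 0.022, adjusted p = 1.0). Both calls depended on single libraries. Rps27a had a log2FC of −0.31 ± 0.26 without Ctr replicate 1 (unadjusted p = 0.261), and it did not pass without Ref replicate 1 or Ref replicate 2 (unadjusted p = 0.118 and 0.0594) or in DESeq2 (unadjusted p = 0.108). Rpl7a had a log2FC of 0.95 ± 0.55 without Ref replicate 1 (unadjusted p = 0.111), and it did not pass without Ctr replicate 2 or Ctr replicate 3 (unadjusted p = 0.0815 and 0.0562). Both Ref libraries lay below every Ctr library for 5 genes, where 10.5% of all genes did so, and above every Ctr library for 5, where 12.4% did. The split of calls over all genes turned with the length correction, to 565 lower and 328 higher, and with the GC correction, to 346 and 230, and it was 239 and 306 with library totals alone.

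The genes around the ribosomal proteins were read from lists of the same translation pathway, and their counts against Ctr stand beside 10.3% of all genes lower and 9.45% higher. Of the 7 ribosome genes that the name rule leaves out, 6 were tested against Ctr and 3 fell, with a median log2FC of −0.42. They were Fau, a ubiquitin-like fusion with a small-subunit protein (log2FC −1.08), the scaffold Rack1 (−0.43) and Rps3a1 (−0.39). Of 18 elongation factor and other TOP mRNAs, 6 fell and 0 rose, with a median of −0.34, among them Eef1b2 (−0.67) and Eef1g (−0.58), subunits of the elongation factor exchange complex. The 30 initiation factor genes had a median of −0.16, and 5 fell, among them Eif1 (−0.90), which acts in start codon selection, and Eif6 (−1.14), which keeps free large subunits apart from small ones. Of 42 ribosome biogenesis genes 10 fell and 0 rose, with a median of −0.33, led by Gar1 (−1.66) and Nhp2 (−1.45), both of the H/ACA particles that guide pseudouridylation. In the mTORC1 list the directions were mixed, with 7 of 21 lower and 3 higher and a median of 0.02. Mtor, the kinase itself, rose by 0.51 and the S6 kinase gene Rps6kb2 fell by 1.34 on the log2 scale.

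Most of these calls rested on Alt replicate 1. Without it, where 4.46% of all genes fell, 1 of the 6 other ribosome genes fell (median −0.18), 1 of the 18 elongation factor and TOP mRNAs (median −0.21), 2 of the 30 initiation factor genes (median −0.07) and 3 of the 42 biogenesis genes (median −0.21). In the mTORC1 list 0 fell and 1 rose without it, and the median turned to −0.12. With the length correction, where 9.06% of all genes fell, 2, 5, 5 and 6 genes of the first 4 lists fell, with medians of −0.28, −0.14, −0.14 and −0.17, and 0, 1, 1 and 1 rose. In the mTORC1 list 4 then fell and 0 rose, with a median of −0.13.

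The lower level was not seen in ribosomal protein genes alone. Of 77 tested genes of mitochondrial ribosomal proteins 30 fell and 0 rose, with a median log2FC of −0.64 against Ctr. Of 38 tested proteasome genes 21 fell, with a median of −0.52, and of 37 genes of respiratory complex I 24 fell, with a median of −0.81, beside −0.67 for the cytosolic ribosomal proteins and 10.3% of all genes lower. Without Alt replicate 1 these medians were −0.38, −0.29 and −0.37, beside −0.34, and 9, 7 and 11 genes fell, beside 4.46% of all genes, while 1 proteasome gene rose. With the length correction they were −0.48, −0.32 and −0.56, and 23, 12 and 18 fell, beside 9.06% of all genes, while 1 gene of the mitochondrial ribosome rose. No test of the difference between these lists was made. The complex I genes had a median length of 1495 bases and those of the mitochondrial ribosome 2533.

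Markers of several cell types moved with the groups. The summed CPM of 2 markers of oligodendrocyte precursors was 92.2 to 124.1 in Ctr, 140.4 and 141.3 in Ref, and 179.6 and 146.9 in Alt. Both markers rose in Alt against Ctr, and 1 was higher in Ref than in Ctr. That of 3 excitatory neuron markers was 1340 to 1534 in Ctr, 1430 and 1324 in Ref, and 1719 and 1667 in Alt. Of these markers 1 was lower and 1 higher in Alt than in Ctr, 2 were lower in Ref than in Ctr, and 1 was higher in Alt than in Ref. That of 3 endothelial markers was 159.1 to 212.4 in Ctr, 226.4 and 264.1 in Ref, and 242.9 and 282.3 in Alt, with 1 marker higher in Ref and 1 in Alt. For oligodendrocyte precursors, excitatory neurons, endothelial cells and microglia both Alt libraries lay above every Ctr library. The summed CPM of 4 oligodendrocyte markers was 2041 to 2857 in Ctr, 3402 and 4265 in Ref, and 2441 and 1986 in Alt, so that it was higher in Ref than in either other group, with 3 markers higher in Ref than in Ctr, 3 lower in Alt than in Ref and 1 lower in Alt than in Ctr. That of 2 red blood cell markers was 84.7 to 135.9 in Ctr, 124.6 and 95.6 in Ref, and 70.1 and 78.7 in Alt, with 1 marker lower in Alt than in Ctr and 1 lower in Alt than in Ref. That of 4 microglial markers was 272.5 to 316.2 in Ctr, 322.5 and 334.1 in Ref, and 329.5 and 328.7 in Alt, with 1 marker higher in Alt than in Ctr. That of 4 astrocyte markers was 1192 to 1475 in Ctr, 1495 and 1634 in Ref, and 1409 and 1497 in Alt, with 2 markers higher in Ref than in Ctr. Of 4 general neuron markers 1 was lower in Alt than in Ctr and 1 higher in Alt than in Ref. Their summed CPM was 4199 to 4669 in Ctr, 3701 and 4250 in Ref, and 4255 and 4480 in Alt. Markers of inhibitory neurons (3) overlapped between Ctr and Alt, and none passed the test. Choroid plexus (3 markers) and ependyma (2 markers) summed to at most 6.11 and 1.89 CPM in any library. The part of cell composition in the ribosomal protein values was not tested.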

How the data were processed

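RNA was prepared from female mouse PFC with Trizol, enriched by Oligo(dT) and made into TruSeq libraries, per the labels. The authors deposited raw read counts per gene and, computed from them, TPM and FPKM values with gene lengths. TPM were not used here. The submitters' processing notes name STAR and featureCounts without versions and the human build hg19, which cannot hold for mouse identifiers, so the table's coordinates were not printed. Promoter sequences are RefSeq's, on GRCm38.p6.

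Tests on counts used edgeR 4.0.16 under R 4.3.3 (TMM, filterByExpr, glmQLFit, glmQLFTest) over all 7 libraries, with Benjamini-Hochberg adjustment over 17254 genes. Log2 CPM used a prior count of 2. A gene fell or rose at an unadjusted p under 0.05. The study coded the groups as an ordered variable, and a linear term of such a factor would have the same p as Alt against Ctr in this model. DESeq2 1.42.0 and other settings were alternatives. To correct for length or GC content, a loess trend (span 0.3) was subtracted in each library. The scripts were tested on simulated data. Named genes were chosen by role, as diverged copies, as the 2 with the smallest p per comparison and subunit, by the 3 highest and 3 lowest levels, or for failing the filter. Genes that this rule or a list holds but the text does not name are not reported here. The members and lists were chosen with earlier results of these data known. In groups of 2 and 3 libraries no outlier test was applied.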

Additional observations from a re-analysis of the deposited data

How the results depend on the processing

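Against Ctr and against Ref, the median of the ribosomal protein genes stayed below 0 under every alternative tried, but the counts of lower genes did not hold. Against Ctr, 55 genes fell, and with the replicate number as a block 35 did (32 of them among the 55). Of all genes, 10.3% fell in the main fit, 6.1% with the block and 6.06% without Ctr replicate 1. Leaving out single libraries gave 14 (without Alt replicate 1) to 72 genes, and 32 without Ctr replicate 1, with medians of −1.14 to −0.34. Combined with the length correction, leaving out Alt replicate 1 gave 8 genes and a median of −0.25. At an adjusted p of 0.05 the count was 0, and it was 24 with DESeq2's Wald test (of 1097 genes called in all), 8 with a numeric score over the groups (of 596), 48 without the low-count filter (of 1484), 64 without Alt replicate 2 (of 3451) and 40 when the length correction was added to that (of 2080).

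Against Ref, 51 genes fell, and 27 did with the length correction, with a median of −0.31. Of all genes, 8.83% and 5.6% fell at these settings. Leaving out single libraries gave 21 genes (without Alt replicate 1, and likewise without Ref replicate 1) to 69, with medians of −1.08 to −0.33, and 8 genes with a median of −0.16 without Alt replicate 1 and with the length correction. At an adjusted p of 0.05 the count of 0 became 18 with DESeq2 (of 429), 37 without the filter (of 850), 54 without Alt replicate 2 (of 2708) and 33 with the length correction added (of 1469). Rplp1 changed sign without Alt replicate 1 and with the length correction, to 0.0272 against Ctr and 0.0156 against Ref.

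Against Ctr, Ref had 2 genes past the unadjusted threshold (541 of all genes), and 9 without the filter (807 of 26895, and 2 of 40 at an adjusted p of 0.05), 8 with the length correction (893), 6 with the GC correction (576), 9 with only these groups in the fit (952), 4 with the replicate block (430), and 0 to 9 when single libraries were left out (236 to 1040). With an Alt library left out and the length correction it was 9 (1407 or 1416). The large minus small median difference in this comparison was 0.113, and with single libraries left out it ranged from −0.0008 (without Ctr replicate 2) to 0.1857 (without Ctr replicate 3). Scaling by library totals alone put the median of all genes at −0.16 against Ctr and −0.14 against Ref, and the members' medians moved with it. Whether the replicate numbers pair the samples could not be decided. Correlations of their deviations lay from −0.10 to 0.07 over the 2 shared numbers. In a group of 2 libraries the deviations at both numbers mirror each other, so that they are not separate values. The cause of these changes was not tested. With 2 libraries in Ref and in Alt, leaving out 1 leaves a lone library that is assumed to vary like the other groups. Depth limits the least covered genes, Rps10 and Rpl24, whose standard errors against Ctr were 1.45 and 1.28 on the log2 scale.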
